A study of Mus musculus with 32 samples.

Results

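The 8 hormone genes of the pancreatic islet, *Ins1*, *Ins2*, *Iapp*, *Gcg*, *Sst*, *Ppy*, *Pyy* and *Ghrl*, were followed in every sorted cell library. They were taken by symbol from the 22850 genes of the expression table, in which each symbol was present once. Each islet hormone is made as a longer precursor in one main endocrine cell type, packed into dense granules and cut by convertases before release. *Ins1* and *Ins2* encode the insulins and *Iapp* encodes amylin, all products of β cells, while *Gcg* encodes proglucagon of α cells, *Sst* somatostatin of δ cells and *Ppy* pancreatic polypeptide of PP cells. *Pyy* encodes peptide YY and *Ghrl* encodes ghrelin, the product of a rare islet cell and mainly of the stomach. These transcripts are among the most abundant of an islet, so their level in the endothelial cells and macrophages sorted from the same islets is given beside that in β cells.

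RNA was sequenced from β cells (GFP-positive), from endothelial cells (ECs) and from macrophages (MΦs), all sorted from pooled, dispersed islets of mice labelled MIP-GFP; RIP-rtTA; TetO-VEGF-A, on a C57BL/6 background and 8 to 16 weeks old when experiments began. In these mice, doxycycline (Dox) in the drinking water switches on human VEGF-A in cells that use the rat insulin promoter, and islets were taken without Dox (No Dox), after 1 week of Dox (1wk Dox) and 1 week after its withdrawal (1wk WD). Every group, No Dox included, carried all 3 transgenes. In that order of time points, the 32 libraries comprised 4, 5 and 3 of β cells, 4, 1 and 5 of ECs and 4, 2 and 4 of MΦs. β cells were sorted as GFP-positive cells that lacked CD31 and CD11b, ECs by CD31 and MΦs by CD11b. GFP was driven by the mouse *Ins1* promoter, so a high *Ins1* level in the β cell gate checks the sort and is no finding. Values are normalized expression scores, rounded to whole numbers, in which 1 is the lowest score and stands for no signal. Whether a score is divided by transcript length is not stated and the number of reads behind it is unknown, so scores are compared between libraries and not between genes.

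The gates matched their markers: the summed score of 8 EC markers was 375126 to 634292 in EC libraries against 1320 to 54082 in β cell libraries, and the sum of 8 MΦ markers was 213009 to 405626 in MΦ libraries against 562 to 5694 in β cell libraries. Summed scores were 23465985 to 53441769 per library. 3 libraries stood apart by transcripts of acinar cells, which make digestive enzymes: the summed score of 10 acinar markers was 14152052 and 10277523 in β cell No Dox replicates 3 and 4 and 12715607 in MΦ No Dox replicate 2, against 36803 and 816633 in the other β cell No Dox libraries and 216 to 648313 in the β cell libraries with Dox or after its withdrawal. Acinar sums were also raised in other No Dox libraries that were kept. The sum reached 1924863 in ECs, and its median over the 4 MΦ No Dox libraries was 1147241. Transcripts of stromal cells also varied: the sum of 7 stromal markers was 948, 1101, 138254 and 498897 in the No Dox β cell libraries, 102953 to 487449 during Dox and 23848 to 339939 after withdrawal, and at most 70385 in ECs and 10354 in MΦs. Results that changed are also given without the 3 libraries rich in acinar transcripts, an alternative added after the data were seen.

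The insulin genes are described first because their reads can be hard to tell apart. *Ins1* (ENSMUSG00000035804) lies on chr19:52338813-52339946 of mm9, plus strand, and *Ins2* (ENSMUSG00000000215) is annotated on chr7:149864561-149885415, minus strand. Their coding sequences, 327 bases in *Ins1* and 333 bases in *Ins2*, share an unbroken run of 56 bases near the 3′ end, longer than the 50-base reads of these libraries. It is shown in capitals, with the bases before and after it, because reads from it fit both genes.
Ins1 coding bases 241 to 327: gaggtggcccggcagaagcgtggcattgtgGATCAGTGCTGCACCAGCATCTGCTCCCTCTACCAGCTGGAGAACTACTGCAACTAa
Ins2 coding bases 247 to 333: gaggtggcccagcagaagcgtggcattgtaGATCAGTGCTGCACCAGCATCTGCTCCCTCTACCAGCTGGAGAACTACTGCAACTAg

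Of the 278 stretches of 50 bases in the *Ins1* coding sequence, 7 occur unchanged in *Ins2*, and 113 (40.6%) occur with at most 2 mismatches. The start of the coding sequence, which encodes the signal peptide, separates the genes better, with 10 differing bases, in capitals, among the first 72.
Ins1 coding bases 1 to 72: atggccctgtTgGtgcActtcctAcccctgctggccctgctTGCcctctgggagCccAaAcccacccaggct
Ins2 coding bases 1 to 72: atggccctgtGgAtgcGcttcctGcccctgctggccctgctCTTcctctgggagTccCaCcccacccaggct

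How reads that fit both genes were shared out is not given in the sources used here, so the split between the 2 insulin genes is uncertain. *Ppy* and *Pyy*, whose products belong to one peptide family, share no run longer than 8 coding bases, and none of 254 stretches of 50 bases in *Ppy* occurs in *Pyy*, even with 2 mismatches. *Ppy* (chr11:101961244-101962633) and *Pyy* (chr11:101967990-101969146) are neighbours on the minus strand. *Iapp* (chr6:142246943-142252481, plus strand) lies within *Slco1a5*, which is read from the opposite strand, and whether the counting used strand is not stated. *Gcg* (chr2:62312587-62321707), *Sst* (chr16:23889667-23890930) and *Ghrl* (chr6:113666113-113669874) are all on the minus strand.

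The level of each hormone gene in each library is plotted by group. *Ins1* scored 5388185, 3168657, 961141 and 296363 in the 4 No Dox β cell libraries, 795095, 1757836, 756100, 218872 and 1433509 in the 5 of 1wk Dox, and 350182, 1135945 and 5791698 in the 3 of 1wk WD. The 3 time points overlapped, and the libraries of one time point differed by up to 18.18-fold. The summed score of 8 β cell markers in the No Dox libraries was 333185, 372931, 93298 and 39735, lowest in the 2 libraries with the lowest *Ins1* scores, and their part in this spread was not tested. *Ins2* scored 2775782, 1905594, 561806 and 273058 at No Dox, 489628, 857438, 674142, 199281 and 1039033 during Dox, and 202879, 611819 and 4596598 after withdrawal. At No Dox and 1wk WD the highest and the lowest library were those of *Ins1*, and at 1wk Dox the lowest was. *Iapp*, which encodes the amyloid peptide released with insulin, scored 47427 to 376504, 68018 to 264526 and 50361 to 416977 at the 3 time points.

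**Figure D1:**
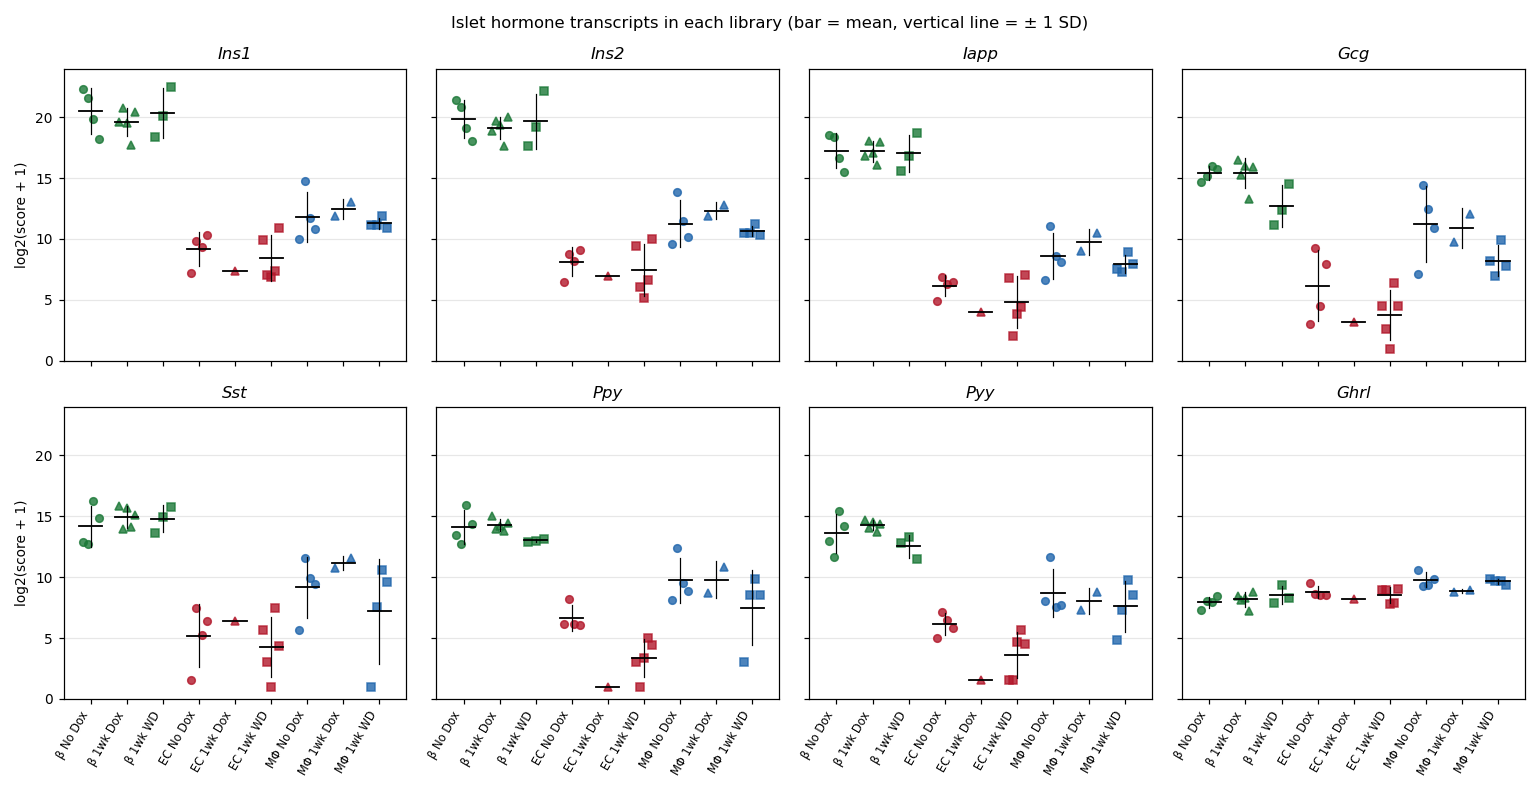
Level of the 8 hormone genes, as log2(score + 1), in each of the 32 libraries (points) by cell type and time point, with the group mean (bar) and ±1 SD (line, where a group has more than 1 library). The β cell libraries lie above the EC and MΦ libraries for 7 of the genes, with some overlap for *Gcg* and *Pyy*, while for *Ghrl* the highest means are those of the MΦ No Dox and MΦ 1wk WD groups.

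The hormones of other islet cells were also detected in the β cell gate. *Gcg* scored 26028, 37239, 64922 and 55585 at No Dox, 93820, 38982, 66003, 10223 and 60588 during Dox, and 2313, 5353 and 23705 after withdrawal. All 3 libraries at 1wk WD were below all 4 at No Dox, and 1 of the 5 at 1wk Dox was within their range. *Sst* scored 6792 to 77372, 15642 to 57646 and 12667 to 56643 at the 3 time points, *Ppy* 6668 to 63847, 14552 to 33255 and 7614 to 9200, and *Pyy* 3323 to 44616, 13256 to 26156 and 2825 to 10180. For all 4 of these genes, the highest No Dox score was that of replicate 3, one of the libraries rich in acinar transcripts. *Ghrl* scored 158, 257, 246 and 347 at No Dox, 348, 281, 313, 146 and 447 during Dox, and 237, 639 and 320 after withdrawal. The 8 genes together made up 1.708% to 22.01%, 2.309% to 10.13% and 2.285% to 27.91% of the summed score at the 3 time points.

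The first comparison asked whether hormone transcripts in the sorted β cells differed while VEGF-A was induced and after it was withdrawn. None of the 8 hormone genes passed the test (limma on log2(score + 1), Benjamini-Hochberg adjusted p under 0.05 and a fold change of at least 2) between any pair of time points. Of the 16346 genes tested, 0.0122% passed for 1wk Dox against No Dox, 0% for 1wk WD against No Dox and 0% for 1wk WD against 1wk Dox. At an unadjusted p under 0.05, with no fold minimum, 0, 1 and 3 of the 8 hormone genes would have passed, and 6.99%, 8.17% and 6.31% of all genes. In bulk libraries, fewer cells of a type and less RNA per cell cannot be told apart.

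*Gcg* had the largest fitted differences at 1wk WD. Its level was lower by a log2 difference of −2.70 ± 0.83 (SE) against No Dox, with a 95% interval of −4.52 to −0.89 (limma, adjusted p = 0.561), and by −2.70 ± 0.79 against 1wk Dox, with an interval of −4.43 to −0.96 (adjusted p = 0.643). The groups did not overlap against No Dox, where 3.1% of all genes were lower without overlap, and *Gcg* was the only hormone of which this was true. With each library left out in turn, the *Gcg* difference against No Dox ran from −3.62 to −1.94, and adjusted p was 0.1997 or more under all 15 alternatives. MΦ marker sums in these β cell libraries were 562 to 4333 at No Dox, 1103 to 2254 during Dox and 3917 to 5694 after withdrawal, and their part in the difference was not tested. Against 1wk Dox, *Ppy* was lower by a log2 difference of −1.27 ± 0.58 (adjusted p = 0.789) and *Pyy* by −1.73 ± 0.70 (adjusted p = 0.721), both without overlap, as were 2.01% of all genes.

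The insulin genes had wide intervals. For 1wk Dox against No Dox, the log2 difference was −0.89 ± 1.85 for *Ins1*, with an interval of −4.92 to 3.14, −0.74 ± 1.49 for *Ins2* and −0.07 ± 0.83 for *Iapp* (limma, adjusted p = 0.944, 0.943 and 0.994), and after quantile normalization these differences were 1.98, 1.56 and 0.98, so no direction can be given. For 1wk WD against No Dox, they were −0.17 ± 2.10, −0.19 and −0.22, and 2.14, 1.38 and 0.71 after quantile normalization. Differences of several fold in either direction were therefore not detectable for the insulins in these libraries. *Gcg* differed by a log2 value of −0.003 for 1wk Dox against No Dox, with an interval of −1.60 to 1.59, and this sign also turned under quantile normalization, to 0.98.

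Without the 3 libraries rich in acinar transcripts, which leaves 2 No Dox β cell libraries, *Pyy* passed the test for 1wk Dox against No Dox, with a log2 difference of 1.92 ± 0.49 (limma, adjusted p = 0.0379) against 0.67 ± 0.64 with them. The same setting gave 1.22 for *Ppy* (adjusted p = 0.0503) and 2.13 for *Sst* (adjusted p = 0.0701), but −2.37 for *Ins1* (adjusted p = 0.522). In the β cell No Dox replicates 3 and 4 that were left out, *Pyy* scored 44616 and 19309, against 8168 and 3323 in replicates 1 and 2 and 13256 to 26156 at 1wk Dox. The *Pyy* call therefore rests on the 2 lowest No Dox libraries. These 2 also had the lowest stromal sums, 948 and 1101, against 102953 to 487449 at 1wk Dox. Their EC marker sums were 1998 and 1356, against 54082, 17988, 26353, 6203 and 1320 at 1wk Dox. The part of acinar, stromal or EC transcripts in the values of these hormones was not tested.

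**Figure D2:**
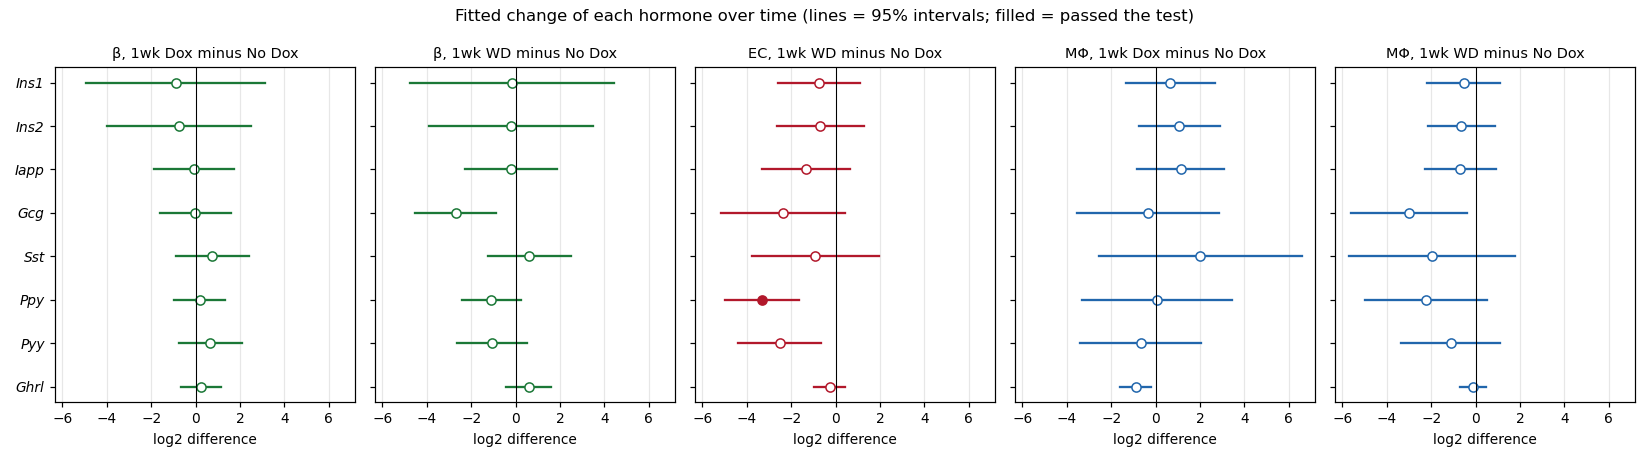
Fitted log2 difference of each hormone gene between time points (points, horizontal axis) with its 95% interval (lines), in 5 panels for β cells, ECs and MΦs against No Dox. Filled points passed the test, which was so for *Ppy* in ECs at 1wk WD.

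The plot of fitted differences between time points shows the same limits by gene: in β cells, the intervals of the insulins span more than those of *Ghrl*, *Ppy* or *Pyy*. Genes that mark α cells were examined beside *Gcg*. None of the 7 α cell markers passed between any pair of time points in β cells (limma), and their median log2 difference for 1wk WD against No Dox was −0.17, against 0.06 over all genes tested. Their summed score was 7239 to 11187, 2762 to 10278 and 3381 to 6164 at the 3 time points in order. *Ttr*, which encodes transthyretin and is abundant in α cells, scored 4664 to 6936 at No Dox and 1221 to 2985 at 1wk WD, without overlap, as for 3.1% of all genes, and 1537 to 6710 at 1wk Dox. Its fitted difference for 1wk WD against No Dox was −1.82 ± 0.45 (limma, adjusted p = 0.514), and those of the other 6 markers ran from −3.98 for *Slc38a5* to 1.48 for *Irx1*. The 3 δ cell markers, examined beside *Sst*, summed to 531 to 2147, 740 to 2165 and 561 to 963, and none passed. Neither sum was particular to the β cell gate. The α cell sum was 13175 to 24398 in MΦs, and the δ cell sum was 1325 to 1803 in MΦs and 858 to 1747 in ECs. The part of MΦ or EC transcripts in the sums of the β cell libraries was not tested.

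The second comparison asked how much hormone RNA was found in each gate. At No Dox, all of the hormone genes except *Ghrl* were higher in β cells than in ECs, as were 22.5% of all 16951 genes tested. The gate selects for *Ins1* promoter activity, so the differences of *Ins1* between gates check the sort. The same holds for *Ins2* and *Iapp*, which are also products of β cells. The log2 difference was 11.34 ± 1.05 for *Ins1*, 11.71 for *Ins2*, 11.11 for *Iapp*, 9.24 for *Gcg*, 8.99 for *Sst*, 7.46 for *Ppy* and 7.47 for *Pyy* (limma, adjusted p of 3.0e-05 or less). Against MΦs, where 24.5% of all genes were higher in β cells, the same 7 genes were higher, by 8.69 for *Ins1*, 8.59 for *Ins2*, 8.65 for *Iapp*, 4.17 ± 1.32 for *Gcg*, 5.02 for *Sst*, 4.39 for *Ppy* and 4.87 for *Pyy* (adjusted p of 0.00885 or less). Without the libraries rich in acinar transcripts, *Sst* no longer passed against MΦs (log2 difference of 4.47, limma adjusted p = 0.0594), while the other 6 genes did. Without MΦ No Dox replicate 1, *Gcg* did not pass (2.80, limma adjusted p = 0.0654).

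The separation between single libraries differed between hormones. The lowest *Ins1* score in a β cell library, 218872, was 111.5 times the highest in an EC library, 1963, and 7.967 times the highest in a MΦ library, 27471. These factors were 199.3 and 13.18 for *Ins2*, 356.6 and 21.9 for *Iapp*, 38.37 and 2.169 for *Sst*, 22.01 and 1.264 for *Ppy*, 20.47 and 0.8806 for *Pyy* and 3.737 and 0.1049 for *Gcg*. The highest MΦ score of each of these 7 genes was that of MΦ No Dox replicate 2, and without it the factors against MΦs were 25.29 for *Ins1*, 27.48 for *Ins2*, 33.19 for *Iapp*, 2.275 for *Sst*, 3.624 for *Ppy*, 3.251 for *Pyy* and 0.3984 for *Gcg*. For *Gcg*, 9 of 12 β cell libraries were above every EC and MΦ library, and for *Pyy* 11 of 12 were. By group means, the 3 β cell groups came first for *Ins1*, *Ins2* and *Iapp*, followed by the 3 MΦ groups and then by the 3 EC groups. No β cell library overlapped a MΦ library for these genes, while MΦ and EC libraries did overlap, with *Ins2* down to 756 in MΦs and up to 1000 in ECs. Within a cell type, neighbouring groups overlapped. For *Gcg* and *Pyy*, all neighbours in this order overlapped.

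At 1wk WD, the same 7 genes were higher in β cells than in ECs and MΦs. For *Ins1* the log2 difference was 11.91 against ECs and 9.06 against MΦs, and for *Gcg* it was 8.91 and 4.48. The *Gcg* difference from MΦs did not pass without β cell 1wk WD replicate 3 (3.57, limma adjusted p = 0.0661). Of all genes tested, 23.8% and 25.8% were higher in β cells in these comparisons. Whether the time difference of a hormone gene differed between gates was tested as an interaction. None of the 8 genes passed in any of the 4 interactions (limma), in which 0.383% (1wk WD against No Dox, β cells minus ECs), 0.0413% (β cells minus MΦs), 0.265% (ECs minus MΦs) and 0.0354% (1wk Dox against No Dox, β cells minus MΦs) of all genes did. At an unadjusted p under 0.05, 0 of the 8 would have passed in each, beside 15.1%, 11.8%, 12% and 8.12% of all genes.

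Most MΦ libraries held more hormone RNA than the EC libraries. In MΦs at No Dox, *Ins2* scored 756, 15116, 2802 and 1150, against 86, 444, 294 and 559 in ECs, so every MΦ library was above every EC library, as for 24.4% of all genes. *Gcg* scored 138, 22058, 5805 and 1869 in MΦs and 7, 619, 21 and 239 in ECs, with overlap. Over all time points, 9 of 10 MΦ libraries were above every EC library for *Ins2*, *Iapp* and *Pyy*, 8 for *Sst* and *Ppy*, 7 for *Ins1* and 6 for *Gcg*. The 8 genes made up 0.01255% to 0.1479% of the summed score in MΦs and 0.00133% to 0.01192% in ECs. *Ins1*, *Ins2* and *Iapp* alone made up 0.00566% to 0.08374% in MΦs and 0.0005185% to 0.009943% in ECs, with overlap.

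In the test at No Dox, 7 hormone genes were lower in ECs than in MΦs, against 18.1% of all genes. The log2 difference was −2.65 for *Ins1*, −3.12 for *Ins2*, −2.46 for *Iapp*, −5.07 for *Gcg*, −3.96 for *Sst*, −3.08 for *Ppy* and −2.60 for *Pyy* (limma, adjusted p of 0.00235 to 0.0430). MΦ No Dox replicate 2, rich in acinar transcripts, had the highest score of all MΦ libraries for these 7 genes, at 27471 for *Ins1* and 3131 for *Sst*. Without the libraries rich in acinar transcripts, 2 genes passed, *Gcg* (−4.00) and *Ghrl* (−1.13), and leaving out MΦ No Dox replicate 2 alone also left 2. Leaving out EC No Dox replicate 1 left 3 (*Gcg*, *Ppy* and *Ghrl*), and leaving out EC No Dox replicate 3 left 3 (*Ins2*, *Gcg* and *Pyy*). With the replicate number as a block, *Ins1* and *Pyy* were lost (limma, adjusted p = 0.0506 and 0.0553). At 1wk WD, where 19.9% of all genes were lower in ECs, the difference was −2.85 for *Ins1*, −3.18 for *Ins2*, −3.11 for *Iapp*, −4.43 for *Gcg*, −4.14 for *Ppy*, −4.00 for *Pyy* and −1.12 for *Ghrl*, all past the test, and −2.90 for *Sst* (limma, adjusted p = 0.112). Without EC 1wk WD replicate 3, 5 genes were called: *Ins1* was lost on its adjusted p (−2.46, limma adjusted p = 0.0534) and *Ghrl* on its fold change (−0.93). Without EC 1wk WD replicate 4, *Ghrl* was lost (−0.95).

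*Ghrl* differed from the other hormones in the place of β cells, which were lowest at No Dox. Its score was 1577, 634, 643 and 915 in MΦs at No Dox, 746, 386, 370 and 368 in ECs and 158, 257, 246 and 347 in β cells. At No Dox, every MΦ library was above every β cell library, and so was every EC library, as for 21.6% and 23.5% of all genes. The difference between β cells and MΦs was −1.85 ± 0.38 on the log2 scale (limma, adjusted p = 0.000159), where 19.8% of all genes were lower in β cells, and at 1wk WD it was −1.14 (adjusted p = 0.0202), where 18.1% were lower. The 1wk WD difference did not pass without β cell 1wk WD replicate 1 (−0.83, limma adjusted p = 0.125) or replicate 3 (−1.05, adjusted p = 0.0646). Between β cells and ECs at No Dox it was −0.87 (adjusted p = 0.0557), and it passed after quantile normalization (−1.29, adjusted p = 0.0100), without β cell No Dox replicate 4 (−1.04, adjusted p = 0.0326) and without the libraries rich in acinar transcripts (−1.14, adjusted p = 0.0409). At 1wk WD, *Ghrl* overlapped between β cells and ECs, with a difference of −0.03 (adjusted p = 0.969). *Mboat4*, which encodes the enzyme that acylates ghrelin, scored 1 to 21 in β cells.

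Between time points, hormone RNA in ECs was compared for 1wk WD against No Dox only, since ECs at 1wk Dox had 1 library. *Ppy* was the 1 hormone gene of 8 that passed, against 1.76% of the 14167 genes tested in either direction and 0.487% that were lower. It scored 70, 303, 69 and 67 at No Dox and 7, 1, 9, 31 and 21 at 1wk WD, so every 1wk WD library was below every No Dox library, as for 4.91% of all genes. The fitted log2 difference was −3.30 ± 0.77, with an interval of −4.97 to −1.63 (limma, adjusted p = 0.0333). *Pyy*, at 31, 138, 91 and 57 against 2, 2, 24, 51 and 22, overlapped and had a difference of −2.52 ± 0.86 (adjusted p = 0.127). *Gcg* had −2.38 ± 1.28 (adjusted p = 0.293) and the other 5 genes were between −1.33 and −0.26.

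The *Ppy* call in ECs depended on single libraries and settings. Adjusted p was 0.0811, 0.117, 0.0830 and 0.0659 without EC No Dox replicates 1, 2, 3 and 4, and 0.0530 and 0.0631 without EC 1wk WD replicates 1 and 3, with log2 differences of −3.71 to −2.71 over all single libraries left out. The filter on low scores kept genes whose mean score reached 20 in any group of the fit. In ECs, *Ppy* met this filter only through No Dox, with a mean score of 127.2, against 13.8 at 1wk WD. The *Ppy* call was also lost without this filter (adjusted p = 0.0567), without the variance trend (0.0824) and with the replicate number as a block (0.0596). Acinar transcripts moved with it: 10 of 10 acinar markers were lower at 1wk WD in the same ECs, from a summed score of 70219 to 1924863 down to 726 to 71133, beside 0.487% of all genes that were lower, and EC No Dox replicate 2 had both the highest *Ppy* score and the highest acinar sum. In addition, 4 of 7 stromal markers were higher, as were 1.28% of all genes. The part of either in the *Ppy* difference was not tested.

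In MΦs, none of the 8 hormone genes passed between time points (limma). Of all genes tested, 2.26% passed for 1wk Dox against No Dox, 0.626% for 1wk WD against No Dox and 0.0866% for 1wk WD against 1wk Dox, and 1 hormone gene of 8 in each had an unadjusted p under 0.05, beside 21.3%, 17.3% and 9.7% of all genes. *Ins2* scored 3706 and 7251 during Dox, and 1425, 1446, 2415 and 1274 after withdrawal. The 2 libraries at 1wk Dox were above all 4 at 1wk WD, and the log2 difference was −1.71 ± 0.85 (adjusted p = 0.551). The columns of both MΦ 1wk Dox libraries lie in a separate run of column numbers. In MΦ comparisons with 1wk Dox, that split cannot be told apart from Dox. *Iapp* and *Sst* were also lower at 1wk WD than at 1wk Dox without overlap, as were 16.6% of all genes. *Ghrl* went the other way, higher at 1wk WD by a log2 difference of 0.78 without overlap, as were 13.4% of all genes.

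Some MΦ calls appeared when libraries were left out. Without MΦ No Dox replicate 2, *Ins2* was higher at 1wk Dox than at No Dox by 1.95 ± 0.47 (limma, adjusted p = 0.0342), against 1.07 ± 0.85 with it. With all libraries, 5 of 10 acinar markers were lower in MΦs at 1wk Dox than at No Dox, as were 0.653% of all genes. Without MΦ No Dox replicate 1, *Gcg* was lower at 1wk WD than at No Dox by a log2 difference of −4.39 ± 0.86 (adjusted p = 0.0496), against −3.02 ± 1.21 (adjusted p = 0.226) with it. *Gcg* scored 138 in that replicate, against 22058, 5805 and 1869 in the other No Dox libraries and 295, 123, 988 and 214 at 1wk WD. In MΦs, *Ghrl* scored 435 and 506 at 1wk Dox, below the 634 to 1577 at No Dox, with a difference of −0.90 ± 0.32 (adjusted p = 0.133), in a comparison where 14.7% of all genes were lower without overlap.

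Next, each hormone was set against *Ins2* in the same library, which shows the makeup of the hormone RNA apart from its amount. The ratio, log2((score + 1)/(*Ins2* score + 1)), may depend on the lengths of both transcripts, so its size is not read by itself and only its difference between libraries is. *Ins1* was 108.5% to 205% of *Ins2* in β cells, 102.5% to 181.7% in MΦs and 135.5% to 328.6% in ECs, although the *Ins2* level ranged from 35 to 4596598. *Iapp* was 9.071% to 34.13% of *Ins2* in β cells, 10.86% to 24.43% in MΦs and 4.615% to 37.14% in ECs. At No Dox, the ratio in β cells minus that in MΦs was 0.10 for *Ins1* and 0.06 for *Iapp* on the log2 scale (exact permutation test, two-sided, p = 0.686 and 0.943).

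**Figure D3:**
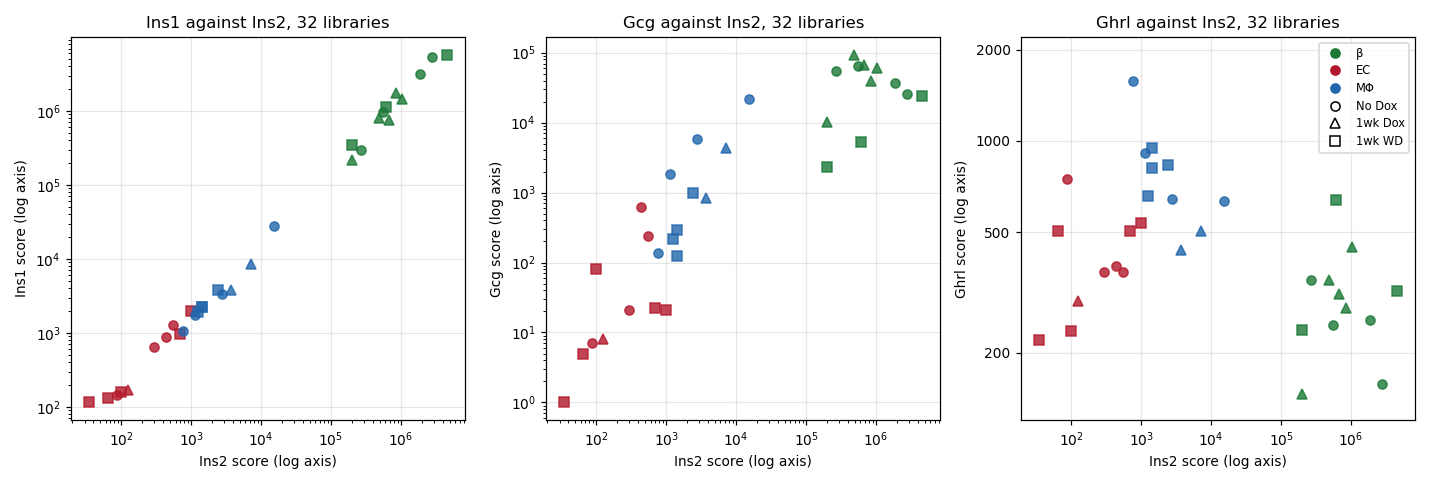
Score of *Ins1*, *Gcg* and *Ghrl* (vertical, log axis) against the score of *Ins2* (horizontal, log axis) in the 32 libraries, with colour for cell type and marker for time point. *Ins1* follows *Ins2* along one line through all 3 cell types, *Gcg* has a higher median ratio to *Ins2* in MΦs than in β cells, and *Ghrl* stays between 146 and 1577.

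The hormones of the other islet cells had wider ratios. *Gcg* was 0.5157% to 20.36% of *Ins2* in β cells but 8.506% to 207.2% in MΦs, with a median log2 ratio of −4.37 in β cells, −1.72 in MΦs and −3.60 in ECs. At No Dox, the β cell minus MΦ difference was −4.42 for *Gcg* (exact permutation test, two-sided, p = 0.0571) and −4.20 for *Ppy* (p = 0.0286, the smallest that 4 libraries against 4 allow), and the *Ppy* groups did not overlap, as for 89.3% of all genes, whose ratio to *Ins2* was lower in β cells. Against ECs, the difference was −4.25 for *Ppy* and −4.24 for *Pyy* (exact permutation p = 0.0286 for both, without overlap, as for 99.1% of all genes). Without the libraries rich in acinar transcripts, these No Dox differences were −5.98 for *Gcg* and −6.51 for *Ppy* against MΦs, and −6.57 for *Ppy* and −6.77 for *Pyy* against ECs. At 1wk WD, the β cell minus MΦ difference of *Gcg* was −4.55 (exact permutation p = 0.0571, the smallest possible, without overlap, as for 94.6% of all genes). A lower ratio to *Ins2* in β cells was thus common to most genes and is not particular to these hormones. After adjustment over the 91 tests of this kind, 0 passed, and the lowest adjusted p was 0.347. The plot of hormone scores against *Ins2* shows these patterns library by library.

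**Figure D4:**
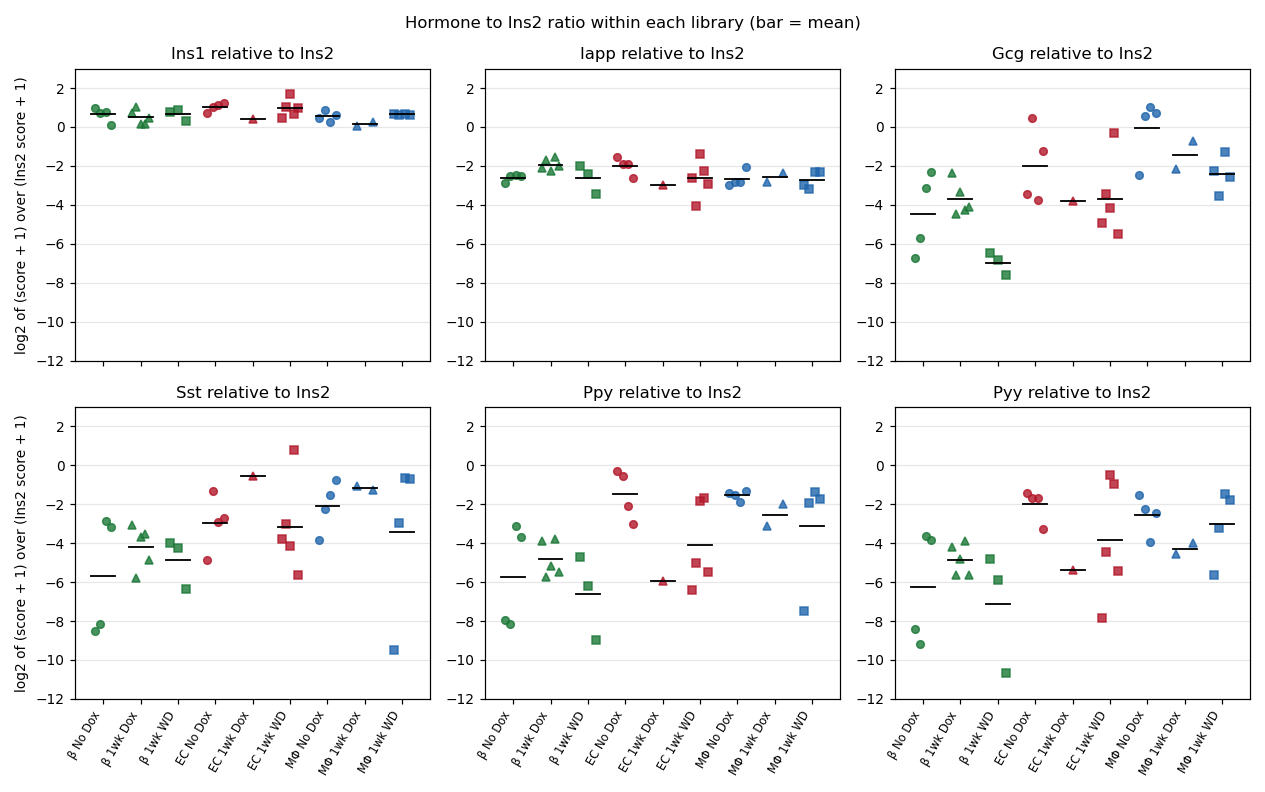
Ratio of 6 hormone genes to *Ins2*, as log2((score + 1)/(*Ins2* score + 1)), in each of the 32 libraries (points) by group, with the group mean (bar). The *Ins1* and *Iapp* ratios of β cells and MΦs overlap at the same heights, and in β cells the *Gcg* ratio has its lowest mean at 1wk WD.

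Within β cells, the plot of ratios to *Ins2* shows 2 differences between time points without overlap. The *Gcg* ratio was −7.60 to −6.45 at 1wk WD, with a mean of −6.96, and −4.46 to −2.38 at 1wk Dox, with a mean of −3.72, a difference of −3.25 (exact permutation test, two-sided, p = 0.0357, the smallest that 3 libraries against 5 allow, adjusted p = 0.347), and 0.71% of all genes had a lower ratio without overlap. Against No Dox, at −6.74 to −2.30, the difference was −2.51 (exact permutation p = 0.114), and it was −0.76 without the libraries rich in acinar transcripts. The *Iapp* ratio was −2.28 to −1.55 at 1wk Dox and −2.88 to −2.48 at No Dox, a difference of 0.67 (p = 0.0159 by the exact permutation test, the smallest possible, adjusted p = 0.347), and it was 0.77 without those libraries. Of all genes, 1.21% had a higher ratio without overlap in that comparison.

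The promoters of the hormone genes were searched for short motifs of factors that act on them. They are shown because the genes differ in the islet cell type that uses them. RefSeq gave a promoter sequence (GRCm38.p6) for 7 of the 8 genes, and each printed stretch, the 150 bases before the start that RefSeq gives, was found once on the gene's chromosome in mm9. RefSeq starts can differ from the mm9 gene models, as for *Ins1*. The motifs were CATCTG, a form of the E box bound by NEUROD1, CTAATG, bound by PDX1, and TGACGTCA, the cyclic AMP response element, each on both strands. Motif letters are in capitals.
Ins1, chr19:52338637-52338786, plus strand: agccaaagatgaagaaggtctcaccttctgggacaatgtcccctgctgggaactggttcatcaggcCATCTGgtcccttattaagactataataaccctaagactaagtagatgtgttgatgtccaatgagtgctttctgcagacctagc
Iapp, chr6:142246795-142246944, plus strand: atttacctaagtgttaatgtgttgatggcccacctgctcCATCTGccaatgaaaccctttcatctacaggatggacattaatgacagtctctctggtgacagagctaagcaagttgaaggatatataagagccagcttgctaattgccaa
Gcg, chr2:62321711-62321860, minus strand: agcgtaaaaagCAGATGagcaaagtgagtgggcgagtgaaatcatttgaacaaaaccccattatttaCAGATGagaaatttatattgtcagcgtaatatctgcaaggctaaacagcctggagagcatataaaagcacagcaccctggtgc
Sst, chr16:23890931-23891080, minus strand: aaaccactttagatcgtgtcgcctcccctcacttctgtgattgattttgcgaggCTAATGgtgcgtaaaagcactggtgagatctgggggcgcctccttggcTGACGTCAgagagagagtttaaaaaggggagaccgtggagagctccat

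*Ins1* and *Iapp* held CATCTG at 84 and 111 bases before the start, and *Gcg* held it on the opposite strand, where it reads CAGATG, at 139 and 83 bases before the start. *Sst* held CTAATG at 96 and TGACGTCA at 48 bases before the start. The windows of *Ppy*, *Pyy* and *Ghrl* held none of the 3. Of 32851 promoters, 8.81% held CATCTG, 3.58% CTAATG and 1.36% TGACGTCA in the same window, so a match describes letters and no binding.

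Genes whose log2 level was most like that of each hormone were named by Pearson's r among 16968 genes, with the other hormones kept apart, as a description. *Ins1* was closer to *Ins2* (r = 0.9978) and *Iapp* (0.9935), *Iapp* to *Ins2* (0.9941) and *Ppy* to *Pyy* (0.9787) than to any gene named here. Over all 32 libraries, which share their cell types, the genes most like *Ins1* were *Scg2* (r = 0.9885), *Chga* (0.9851) and *Chgb* (0.9842), and those most like *Iapp* were *Scg2* (0.9913), *Pcsk2* (0.9878) and *Chgb* (0.9876), all genes of granin proteins or of a convertase in secretory granules. *Gcg* was most like *Myo5b* (0.9536), *Pappa2* (0.9526) and *Ttr* (0.9408), *Sst* like *Pappa2* (0.9414) and *Rbp4* (0.9357), *Ppy* like *Pappa2* (0.9484) and *Rbp4* (0.9451), and *Pyy* like *Rbp4* (0.947). *Ghrl* reached at most 0.8358, with *Med13l*, and its r with the other hormones was −0.4272 to −0.2646.

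Within the 12 β cell libraries, in which acinar and stromal sums differed widely, the correlations differed between hormones. *Ins1* had r = 0.9778 with *Ins2* and 0.9447 with *Iapp*, and *Ppy* had 0.8816 with *Pyy*. *Ins1* had 0.2229 with *Gcg*, −0.1699 with *Sst* and −0.5063 with *Pyy*, while *Ppy* had 0.6671 with *Gcg* and 0.6596 with *Sst*. The genes most like *Sst* were *Slc5a1* (0.8686), *Dpysl5* (0.8544) and *Ghsr* (0.8457), which encodes the ghrelin receptor and scored 1 to 175 in β cells.

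The genes that process, control and sense the hormones were described from fixed lists, with no hormone among them. Between time points in β cells, 0 of 7 processing genes, 0 of 14 regulators, 0 of 13 receptors and 0 of 10 other peptide hormones passed (limma), where at most 0.0122% of all genes did, with median log2 differences of −0.02, 0.11, 0.12 and 0.07 for 1wk WD against No Dox, beside 0.06 over all genes tested. At No Dox, 22.5% of all genes were higher in β cells than in ECs and 24.5% higher than in MΦs. Of 8 processing genes, 5 and 6 were higher in these comparisons, among them *Pcsk1* (8.28 and 8.33) and *Pcsk2* (9.90 and 7.15), the convertases that cut prohormones, and *Cpe* (9.63 and 7.61), the carboxypeptidase that trims them. Of the 14 regulators tested, 12 were higher in β cells in both comparisons, among them *Pdx1* (10.01 against ECs) and *Nkx6-1* (10.58), transcription factors of β cells, while *Hhex* was lower (−2.78 and −3.33).

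Among receptors, *Glp1r*, the receptor of the incretin made from the *Gcg* precursor, was higher in β cells by 10.01 against ECs and 7.00 against MΦs, and *Gcgr*, the glucagon receptor, by 3.53 and 3.79. The somatostatin receptor gene *Sstr3* was higher in β cells than in ECs (9.76), while *Sstr4* (−6.52) and *Sstr1* (−7.32) were lower. The insulin receptor gene *Insr* scored 20351 to 23700 in ECs and 3968 to 4725 in β cells at No Dox, a log2 difference of −2.37. In ECs, 1 of 9 receptor genes was lower at 1wk WD than at No Dox, *Ramp3* (−1.18 ± 0.22, limma adjusted p = 0.0145), beside 0.487% of all genes. *Ramp3* encodes a partner of the amylin receptor and scored 2230 to 2895 at No Dox and 693 to 1533 at 1wk WD. One of 5 processing genes was higher, *Cpe* (2.77 ± 0.47, adjusted p = 0.0113), at 29 to 72 against 119 to 862, beside 1.28% of all genes. The summed stromal score of the same EC libraries was 5543 to 12264 at No Dox and 16690 to 70385 at 1wk WD, and its part in the *Cpe* difference was not tested. Of the other peptide hormones, *Ucn3*, made by mature β cells, was higher in β cells by 9.37 against ECs and 9.44 against MΦs, as was *Penk* (5.78 and 4.23).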

How the data were processed

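RNA from 8000 to 400000 sorted cells per sample was amplified (NuGEN Ovation) and sequenced as 50-base paired ends. The authors mapped reads to mm9 with TopHat 2.0, normalized them by the trimmed mean of M-values (TMM) in Avadis NGS and deposited one table, whose values are treated as a score, since they are rounded normalized expression with a floor of 1 and without read counts. Depth is therefore unknown, and no interval for counting error is given. Low scores rest on little signal, and amplification can widen the spread.

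Of 38 value columns, 32 were matched to the labels and used, and 6 were not used. A separate run of column numbers holds both MΦ 1wk Dox libraries, the EC 1wk Dox library and β cell 1wk WD replicate 3. What this run stands for is not stated. The study describes the samples of a group as biological replicates, each of islets pooled from several mice, and the labels do not name the animals. No 2 libraries held identical values (highest correlation 0.9909).

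Scores were tested as log2(score + 1) with limma 3.58.1 (R 4.3.3, trend, Benjamini-Hochberg), keeping genes whose mean score reached 20 in any group of the fit, separately in β cells, ECs and MΦs for time and jointly for gates and interactions. A call needed an adjusted p under 0.05 and a fold change of at least 2. Fold changes of low genes are understated on this scale. Ratios to *Ins2* were compared by exact two-sided permutation tests (scipy 1.17.1). Time comparisons of one cell type share No Dox libraries. The study's z-score test could not be repeated from the table. All 8 hormones are named, with up to 3 of the genes most like them and list genes by role. Genes most like *Ins2*, other than hormones, are not named. The members and lists were chosen with earlier results of these data known.

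In simulated data with 200 changed genes, 50 per fold size, the β cell comparison of 1wk WD and No Dox (15975 genes) recovered 18%, 60%, 76% and 78% of 2-, 4-, 8- and 16-fold changes, and the EC comparison (14103 genes) 42%, 96%, 100% and 98%. The changed genes were drawn at random, and the median residual SD of the β cell fit was 0.6103 on the log2 scale. *Ins1* had an SD of 1.867 at No Dox and 2.033 at 1wk WD, so these rates do not apply to the insulins.

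Beside the lists described in the report, 8 of 8 β cell markers were higher in β cells than in ECs and MΦs at No Dox, beside 22.5% and 24.5% of all genes. Between time points, no β cell, δ cell, duct, Schwann cell, EC or MΦ marker was called in any cell type. Alternatives changed the scaling, filter, pseudocount, variance model, samples fitted, replicate block and single libraries.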

Additional observations from a re-analysis of the deposited data

Results flagged for a closer look

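3 hormone values stood far from the other libraries of their group by Dixon's test on the log2 scale, among 48 groups of 4 or 5 libraries checked, of which chance flags about 1 in 20. *Ppy* scored 303 in EC No Dox replicate 2, against 67, 69 and 70 in the other 3 libraries (gap over range 0.9712, critical value 0.829). The same library had the highest acinar marker sum of the ECs, 1924863, and leaving it out gave the *Ppy* difference at 1wk WD an adjusted p of 0.117 (limma). *Pyy* scored 3208 in MΦ No Dox replicate 2, against 182, 207 and 262 (0.8734), and this library is one of the 3 rich in acinar transcripts. *Ghrl* scored 746 in EC No Dox replicate 1, against 368, 370 and 386 (0.9325).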

How the results depend on the processing

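Of the counts of called hormones, those that moved by more than 1.5-fold were 1 for β cells at 1wk Dox against No Dox, 1 for MΦs at 1wk Dox against No Dox and 2 for ECs against MΦs at No Dox without the libraries rich in acinar transcripts, 0 for ECs at 1wk WD against No Dox without the filter, without the variance trend or with the replicate block, and 1 for MΦs at 1wk WD against 1wk Dox fitted on those groups alone (*Ins2*, −1.71, adjusted p = 0.0367). With single libraries left out, these counts ran from 0 to 1 for ECs at 1wk WD against No Dox and for MΦs at 1wk Dox or 1wk WD against No Dox, and from 2 to 7 for ECs against MΦs at No Dox. Smaller moves, over all alternatives, were 7 to 8 for β cells against ECs and against MΦs at No Dox, and at 1wk WD 6 to 8 for β cells against MΦs and 5 to 8 for ECs against MΦs. The causes were not tested.

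No reversed difference had passed the test. Quantile normalization turned the log2 differences at 1wk Dox against No Dox in β cells to 1.98 for *Ins1*, 1.56 for *Ins2*, 0.98 for *Iapp* and 0.98 for *Gcg*, those at 1wk WD against No Dox to 2.14, 1.38 and 0.71 for *Ins1*, *Ins2* and *Iapp*, *Ins2* at 1wk WD against 1wk Dox to −0.18 and, in MΦs, *Ppy* at 1wk Dox against No Dox to −0.010. Without the libraries rich in acinar transcripts, *Gcg* became 0.47 in β cells and 0.73 in MΦs and *Pyy* 0.31 in MΦs at 1wk Dox, and at 1wk WD *Pyy* became 0.19 in β cells and *Ins1*, *Ins2* and *Iapp* 0.44, 0.24 and 0.14 in MΦs, while the *Iapp* ratio of β cells minus MΦs at No Dox became −0.089. With a pseudocount of 20 this ratio was −0.034, and −0.020 at 1wk WD.

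With single libraries left out, the differences that turned ran as follows. In β cells at 1wk Dox against No Dox, *Gcg* ran from −0.28 to 0.52, *Iapp* from −0.64 to 0.35 and *Ppy* from −0.29 to 0.80. At 1wk WD against No Dox, *Iapp* ran from −1.04 to 0.49, *Ins1* from −1.24 to 0.79 and *Ins2* from −1.43 to 0.82. At 1wk WD against 1wk Dox, *Ghrl* ran from −0.067 to 0.65, *Iapp* from −0.97 to 0.56, *Ins1* from −0.35 to 1.68, *Ins2* from −0.69 to 1.56 and *Sst* from −0.63 to 0.45. In MΦs at 1wk Dox against No Dox, *Gcg* ran from −1.70 to 0.85, *Ppy* from −1.02 to 1.12 and *Pyy* from −1.43 to 0.31. At 1wk WD against No Dox, *Ins1* ran from −1.14 to 0.44, *Ins2* from −1.20 to 0.24, *Iapp* from −1.35 to 0.14, *Sst* from −3.12 to 0.10 and *Ghrl* from −0.28 to 0.16, and *Pyy* at 1wk WD against 1wk Dox ran from −1.22 to 0.46. The ratio to *Ins2* ran from −0.020 to 1.46 for *Gcg* in β cells at 1wk Dox against No Dox, and for β cells minus MΦs from −0.23 to 0.50 (*Iapp*) and −0.083 to 0.20 (*Ins1*) at 1wk WD and from −0.046 to 0.27 (*Iapp*) and −0.0073 to 0.27 (*Ins1*) at No Dox.

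Samples of different groups share replicate numbers, and the labels do not say what a number stands for. Deviations of same-numbered samples correlated by over 0.1 in some pairs and not in others (−0.4658 to 0.3709, the highest for replicate 2 of ECs and MΦs at No Dox, the acinar-richest library of each), so the numbers were not taken to pair samples. With the replicate block, no hormone was called for ECs at 1wk WD against No Dox (*Ppy* −3.57, adjusted p = 0.0596), 5 were called for ECs against MΦs at No Dox, and in MΦs *Ppy* at 1wk Dox against No Dox became −1.12 and *Pyy* at 1wk WD against 1wk Dox became 0.26.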
